A study of Mus musculus with 10 samples.

Results

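The 10 genes Gas1, Gas2, Gas6, Pmp22, Ddit3, Foxo1, Foxo3, Klf9, Txnip and Btg1 are known to rise in fibroblasts that stop dividing when serum is withdrawn, or to hold cells in that state. They were chosen by name, for this known behaviour, from the 45232 gene entries of the RNA-seq series. RNA had been sequenced from NIH3T3 cells, an immortalised mouse fibroblast line, in 10 libraries of 2 clones in which CRISPR/Cas9 nickase had placed InDels in Lin37. In 1 clone the InDels lay at exon 4 and in the other at exon 6, with 1 clone per targeted exon, so that a difference between the clones cannot be told apart from a difference between the targeted exons. All libraries came from cells kept in medium with 0% serum for 60 h and labelled as quiescent. Both groups of each clone carried the mutated Lin37 gene and a stably maintained pRTS episome, a plasmid kept outside the chromosomes from which doxycycline induces a transgene together with GFP. In the KO cells the transgene was luciferase, and in the rescue cells it was wild-type Lin37. Per the study's methods, induced cells were sorted for GFP. Its western blots already showed Lin37 protein from the transgene without induction. The exon 4 clone gave 2 biological replicates of KO and 2 of rescue cells. From the exon 6 clone came 3 libraries per group, the last of which was a technical replicate of biological replicate 2 and was averaged with it, which left 4 KO and 4 rescue replicates. No serum-fed cells and no parental cells are in the series. A rise of these genes upon starvation could therefore not be seen, and the comparison asks whether starved cells without Lin37 held the arrest genes at the level of starved cells with Lin37.

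Quiescence is a reversible arrest outside the cell cycle. Lin37 is a subunit of DREAM, a complex that binds E2F and CHR sites in the promoters of cell cycle genes and represses them in arrested cells. The growth arrest specific (GAS) genes were named because their mRNAs accumulate in serum-starved mouse fibroblasts. FOXO transcription factors are held out of the nucleus by growth factor signalling and return to it when growth factors are withdrawn, where they activate genes of arrest and stress resistance. Levels are given as RPKM (reads per kilobase of gene, divided by the size of the library), rescaled between libraries by the median of ratios. RPKM values are per length, so that levels can be compared between genes. Changes are differences of log2(RPKM + 0.5) between KO and rescue cells from a limma fit over all genes with clone as a covariate, and a gene was called at an adjusted p under 0.05.

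The libraries matched their labels. Lin37 itself lay between 0.274 and 0.417 RPKM in the 4 KO replicates and between 2.12 and 4.92 RPKM in the 4 rescue replicates, a log2 change of -2.25 (SE 0.17, limma adjusted p = 0.000293). All 8 fibroblast markers examined, among them Col1a1, Vim and Thy1, had a mean of at least 1 RPKM. Their summed level was 470 to 765 RPKM in KO and 506 to 829 RPKM in rescue libraries, while no marker of another cell type had a mean of 1 RPKM. Means under 0.1 RPKM were found for 3 of 4 epithelial markers (Epcam, Krt8 and Krt18), 3 of 3 endothelial, 2 of 3 haematopoietic (Ptprc and Adgre1), 2 of 3 skeletal muscle (Myod1 and Myog) and 3 of 3 adipocyte markers, and for the rest (Cdh1, Cd68 and Des) the means lay between 0.1 and 1 RPKM. The summed haematopoietic level was the highest of these, at 0.745 to 1.48 RPKM in KO and 0.563 to 1.09 RPKM in rescue libraries, and its part in the results was not tested. The scale of the deposited values moved with the groups. The scaling factor of a library ran from 0.324 to 2.70 and was higher in the KO library than in the rescue library of the same clone and number in 5 of 5 pairs, by 1.56-fold to 2.77-fold. The share of summed RPKM on protein-coding genes also moved with the groups, at 19.8% to 67.4% in KO and 52.2% to 78.5% in rescue libraries. The part of either in the results was not tested beyond the alternative scalings given beside them.

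None of the 9 arrest genes that could be tested passed the test for a difference between KO and rescue cells. Over both clones 0 of 9 were called, against 1.69% of the 16866 genes tested, 271 higher (1.61%) and 14 lower in KO. At an unadjusted p under 0.05 there were also 0 of 9, against 8.79% of all genes. Their log2 changes ran from -0.29 for Txnip to 0.21 for Klf9, with a median of -0.13 beside a median of -0.03 over all genes tested, and 85.0% of all genes had a change no larger than 0.29. The 95% interval of all 9 changes lay within 1 log2 unit on either side of 0, with bounds from -0.62 to 0.70. It did so for 94.0% of all genes tested. On this scale 1 log2 unit is a 2-fold change of RPKM + 0.5. For low genes such as Foxo1 (0.408 RPKM in KO, 0.497 RPKM in rescue) and Gas2 (0.644 and 0.760 RPKM) it is a larger change of RPKM. Intervals of low genes therefore lie within 1 unit more readily and bound changes of RPKM less tightly. A p above the threshold does not show that the levels were equal. The 95% intervals give the sizes of change that the 4 and 4 replicates leave possible after this rescaling. They do not cover the choice of scale. Pmp22 was at -0.69 with the scaling factor as a covariate. Klf9 was at 1.05 without rescaling, where the median of all genes was 0.64. In the same fit 12 of 16 proliferation markers were called higher in KO cells, with log2 changes of up to 2.01 for Top2a. That list holds known targets of DREAM and was drawn up with earlier results of these samples known, so its count is no independent evidence.

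The arrest genes spanned a wide range of levels in the starved cells. Gas1 was the highest, with a mean over the rescue replicates at the 99.0 percentile of all genes tested, followed by Txnip at the 98.2 percentile. Foxo3 and Btg1 followed at means of 7.40 and 7.33 RPKM over the 8 replicates and could not be ordered, since Foxo3 was the higher in 4 of 8 replicates. Pmp22 (5.50 RPKM) lay below Btg1 in 7 of 8 and above Ddit3 (4.22 RPKM) in 6 of 8 replicates. Klf9 was at 2.28 RPKM, Gas2 at 0.702 RPKM and Foxo1 at 0.452 RPKM, and Gas2 was above Foxo1 in 6 of 8 replicates. The steps from Gas1 to Txnip, Txnip to Foxo3, Ddit3 to Klf9, Klf9 to Gas2 and Foxo1 to Gas6 held in 8 of 8 replicates. Of the 10 genes, 7 had a mean of at least 1 RPKM.

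**Figure D1:**
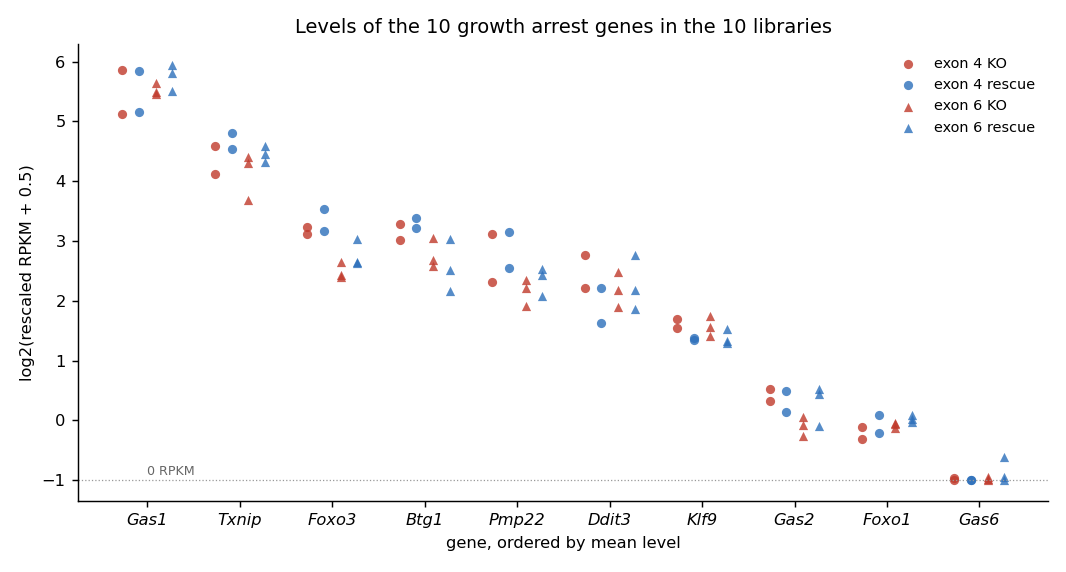
Level of each arrest gene in each of the 10 libraries, as log2(rescaled RPKM + 0.5), with genes ordered by their mean, KO libraries in red, rescue libraries in blue, circles for the exon 4 and triangles for the exon 6 clone. KO and rescue points overlap for all 10 genes, and Gas6 lies at or near the line that marks 0 RPKM.

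Gas1 encodes a membrane protein that blocks entry into S phase when overexpressed and acts as a co-receptor for Hedgehog ligands. It lies on chromosome 13, 60174405 to 60177365 on the minus strand of GRCm38, in 1 exon. Replicates 1 and 2 of the exon 4 clone stood at 57.6 and 34.6 RPKM without Lin37, beside 57.3 and 35.3 RPKM for the matching rescue libraries. The exon 6 clone gave 44.7, 43.4 and 49.5 RPKM without Lin37, beside 55.6, 45.0 and 61.3 RPKM with it. The groups overlapped, and in the exon 4 clone the replicate number separated the values more than the genotype did. The means were 45.8 ± 9.46 RPKM in KO against 50.3 ± 10.2 RPKM in rescue cells (SD, n = 4 each), a log2 change of -0.13 (SE 0.20, 95% interval -0.59 to 0.33, adjusted p = 0.904). Leaving out 1 replicate of the exon 4 clone moved it to between -0.01 (without KO replicate 2) and -0.30 (without KO replicate 1), with -0.02 and -0.29 without rescue replicates 1 and 2. Of its 2961 exon bases, 19.9% overlap an antisense gene, Gm48488, and whether reads were counted by strand is not given in the sources used here.

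Pmp22, first found as Gas3, encodes a membrane protein of the growth arrest programme that is best known as a component of peripheral myelin. Its gene is on chromosome 11, 63128982 to 63159547 on the plus strand. In the exon 4 clone the KO libraries were at 8.14 and 4.48 RPKM, and those of rescue cells at 8.36 and 5.34 RPKM. In the exon 6 clone they were at 4.15, 4.58 and 3.26 RPKM for KO against 5.29, 4.88 and 3.75 RPKM for rescue. Pmp22 was lower in KO in 4 of 4 pairs, with log2 differences from -0.04 to -0.32, while the groups overlapped. The fitted log2 change was -0.18 (SE 0.19, 95% interval -0.62 to 0.27, adjusted p = 0.852). It rested on single libraries of the exon 4 clone, at -0.35 and -0.03 without KO replicates 1 and 2 and at -0.07 and -0.31 without rescue replicates 1 and 2. With the scaling factor as a covariate, a choice made after the data were seen, it was -0.69 (adjusted p = 0.0508).

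Gas2 encodes a cytoskeletal protein that binds actin filaments and microtubules and is cleaved during apoptosis. The gene spans chromosome 7, 51862015 to 51994975 on the plus strand. The exon 4 clone gave 0.937 and 0.752 RPKM without Lin37 against 0.900 and 0.599 RPKM with it, so that Gas2 was higher in KO in both pairs. The exon 6 clone gave 0.446, 0.543 and 0.338 RPKM without Lin37 against 0.854, 0.929 and 0.441 RPKM with it, so that Gas2 was lower in KO in both pairs. This was the only member with an unadjusted p under 0.05 within a clone. In the exon 6 clone alone its log2 change was -0.43 (SE 0.12, 95% interval -0.73 to -0.12, limma adjusted p = 0.27), where 0 of 9 arrest genes were called against 1.3% of 15301 genes, and 1 of 9 against 11.8% at the unadjusted p. In that clone the KO and rescue replicates of Gas2 did not overlap, which held for 42.8% of all genes tested. The technical libraries of the rescue group, however, differed by 2.11-fold and those of the KO group by 1.61-fold. The test of the difference between the clones gave a log2 value of -0.54 (95% interval -1.08 to 0.00, limma adjusted p = 0.997). Over both clones Gas2 had a log2 change of -0.16 (SE 0.14, adjusted p = 0.81), which was -0.06 without exon 6 rescue replicate 1, -0.10 without exon 6 KO replicate 1 or 2, -0.25 without exon 4 KO replicate 1 and -0.28 without exon 4 rescue replicate 2. With the scaling factor as a covariate it was -0.34.

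Gas6 encodes the secreted ligand of the receptor tyrosine kinases Axl, Tyro3 and Mertk. It lies on chromosome 8, 13465374 to 13494490 on the minus strand. It was at or near 0 in every library. The KO libraries were at 0 and 0.00996 RPKM in the exon 4 clone and at 0.00831, 0 and 0.0195 RPKM in the exon 6 clone. The rescue libraries were at 0.000104 and 0.00137 RPKM in the exon 4 clone and at 0.0201, 0.150 and 0 RPKM in the exon 6 clone. With a mean of 0.0156 RPKM it fell below the minimum of 0.1 RPKM and was not tested. Its receptor Axl was well measured, at 15.4 ± 1.71 RPKM in KO against 14.7 ± 2.81 RPKM in rescue cells (SD, n = 4 each). Axl had a log2 change of 0.07 (SE 0.11, adjusted p = 0.898), while Mertk was at 0.0333 and 0.0486 RPKM.

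Foxo3 and Foxo1 encode forkhead transcription factors that are regulated mainly through phosphorylation and export from the nucleus, so that their mRNA does not report their activity. Foxo3 lies on chromosome 10, 42181841 to 42276755 on the minus strand. Its KO libraries were at 8.13 and 8.87 RPKM in the exon 4 clone and at 4.91, 4.74 and 5.78 RPKM in the exon 6 clone. Its rescue libraries were at 8.51 and 11.1 RPKM in the exon 4 clone and at 5.79, 5.71 and 7.68 RPKM in the exon 6 clone. Foxo3 was thus lower in KO in 4 of 4 pairs, but the clones stood further apart than KO and rescue did. The log2 change between KO and rescue was -0.23 (SE 0.11, 95% interval -0.48 to 0.03, adjusted p = 0.623) and was -0.05 with the scaling factor as a covariate. Foxo1, on chromosome 3, 52268336 to 52353221 on the plus strand, was the lowest of the tested members. Its libraries ran from 0.308 to 0.464 RPKM in KO and from 0.361 to 0.568 RPKM in rescue cells. It too was lower in KO in 4 of 4 pairs, with a log2 change of -0.13 (SE 0.10, adjusted p = 0.779). That change was -0.07 without exon 4 rescue replicate 2 and 0.0005 with the scaling factor as a covariate. Of the exon bases of Foxo1, 7.78% overlap the antisense gene Gm20402. This gene had means of 0.339 ± 0.124 RPKM (KO) and 0.572 ± 0.454 RPKM (rescue), about as high as those of Foxo1.

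Txnip encodes a thioredoxin-binding arrestin that restrains glucose uptake, and its gene is a target of FOXO factors and of the glucose sensor MondoA. Its locus is chromosome 3, 96557957 to 96561883 on the plus strand. Its KO libraries were at 17.0 and 23.5 RPKM in the exon 4 clone and at 19.2, 20.8 and 12.3 RPKM in the exon 6 clone. Its rescue libraries were at 22.8 and 27.6 RPKM in the exon 4 clone and at 21.4, 23.5 and 19.4 RPKM in the exon 6 clone. After rescaling Txnip had the largest change of the members, though not with the scaling factor as a covariate or in the deposited values, and was lower in KO in 4 of 4 pairs, while the highest KO replicate lay above the lowest rescue replicate. The means were 19.0 ± 3.17 RPKM in KO against 23.3 ± 2.92 RPKM in rescue cells (SD, n = 4 each). The log2 change was -0.29 (SE 0.13, 95% interval -0.59 to 0.01) and did not pass the test (limma adjusted p = 0.583). It was -0.19 without exon 4 KO replicate 1 and -0.07 with the scaling factor as a covariate. Of its exon bases 19.4% overlap the antisense gene Gm15441, which was itself at means of 0.0671 RPKM (KO) and 0.132 RPKM (rescue).

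Klf9 encodes a zinc finger transcription factor that restrains proliferation in several tissues and responds to glucocorticoids. The gene is on chromosome 19, 23141226 to 23168134 on the plus strand. Its KO libraries were at 2.73 and 2.40 RPKM in the exon 4 clone and at 2.15, 2.46 and 2.87 RPKM in the exon 6 clone. Its rescue libraries were at 2.05 and 2.09 RPKM in the exon 4 clone and at 1.95, 2.02 and 2.39 RPKM in the exon 6 clone. Klf9 was the only member that was higher in KO in 4 of 4 pairs, and the groups touched only through the lowest KO replicate (2.15 RPKM) and the highest rescue replicate (2.21 RPKM). It also had the smallest spread over the replicates of the 10 genes, with a coefficient of variation of 12.7%. The means were 2.49 ± 0.266 RPKM in KO against 2.07 ± 0.108 RPKM in rescue cells (SD, n = 4 each), a log2 change of 0.21 (SE 0.10, 95% interval -0.01 to 0.43, limma adjusted p = 0.595). Its direction was the same under all 20 alternatives tried.

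Btg1 encodes an antiproliferative protein that binds the CCR4-NOT deadenylase and is abundant in resting cells. Its locus is chromosome 10, 96617006 to 96622809 on the plus strand. Its KO libraries were at 9.21 and 7.64 RPKM in the exon 4 clone and at 5.95, 5.49 and 7.80 RPKM in the exon 6 clone. Its rescue libraries were at 8.78 and 9.93 RPKM in the exon 4 clone and at 3.99, 5.22 and 7.73 RPKM in the exon 6 clone. The KO range lay within the rescue range. The log2 change was 0.07 (SE 0.16, 95% interval -0.31 to 0.44, adjusted p = 0.942), and its sign turned without exon 6 KO replicate 2 (-0.01) or without exon 6 rescue replicate 1 (-0.10). It was 0.16 and 0.14 without exon 4 KO or rescue replicate 2 and 0.15 without exon 6 rescue replicate 2.

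Ddit3, also known as Gadd153 or CHOP, encodes a transcription factor of the integrated stress response that was first isolated as a growth arrest and DNA damage gene. The gene spans chromosome 10, 127290774 to 127296288 on the plus strand. Its KO libraries were at 6.32 and 4.14 RPKM in the exon 4 clone and at 3.24, 4.01 and 5.06 RPKM in the exon 6 clone. Its rescue libraries were at 4.15 and 2.60 RPKM in the exon 4 clone and at 4.05, 3.14 and 6.33 RPKM in the exon 6 clone. Ddit3 was higher in KO in both exon 4 pairs, with log2 differences of 0.55 and 0.58, and lower in KO in both exon 6 pairs, with -0.28 and -0.06. Such a split was seen for 12.4% of all genes tested and for Gas2 and Ddit3 among the members. The test of the difference between the clones gave a log2 value of -0.74 (95% interval -1.63 to 0.16, adjusted p = 0.997), and no member was called in it, against 0% of all genes tested and 4.06% at an unadjusted p under 0.05. Over both clones the log2 change was 0.20 (SE 0.22, 95% interval -0.30 to 0.70, adjusted p = 0.853), and it was -0.06 with the scaling factor as a covariate. It was 0.01 without exon 4 KO replicate 1 or exon 4 rescue replicate 2, and 0.36 and 0.31 without exon 6 KO replicate 1 or exon 6 rescue replicate 2. The technical libraries of the rescue group differed by 2.01-fold. Of the exon bases of Ddit3, at most 10.9% overlap other gene entries. Among these is the antisense gene Mars, at means of 2.50 RPKM (KO) and 2.34 RPKM (rescue).

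Within each clone no member was called either. In the exon 4 clone 0 of 9 members were called, where 0% of 18751 genes were called, Lin37 among those not called (log2 change -1.84, limma adjusted p = 0.167), and 4.1% had an unadjusted p under 0.05, and only the interval of Ddit3 (-0.16 to 1.29) reached beyond 1 log2 unit. In the exon 6 clone the intervals of all 9 members lay within 1 log2 unit. The members had a median log2 change of -0.13 in the exon 4 clone, beside -0.08 over all genes, and of -0.22 in the exon 6 clone, beside 0.00 over all genes. Over the 4 same-numbered pairs, 4 of the 9 members (Pmp22, Foxo1, Foxo3 and Txnip) were lower in KO in every pair, as were 12.9% of all genes, and 1 of 9 (Klf9) was higher in every pair, as were 8.96% (21.9% for both directions together). The technical libraries of the KO group differed by more than the fitted change between KO and rescue cells for 7 of the 9 members. Those of the rescue group did so for 6 of the 9. Median absolute log2 differences were 0.30 between the technical KO libraries, 0.40 between the technical rescue libraries and 0.18 between KO and rescue cells. The technical values set single libraries against each other, while the fitted changes average 4 replicates a group. Averaging lowers such a difference, so the measures are unlike.

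**Figure D2:**
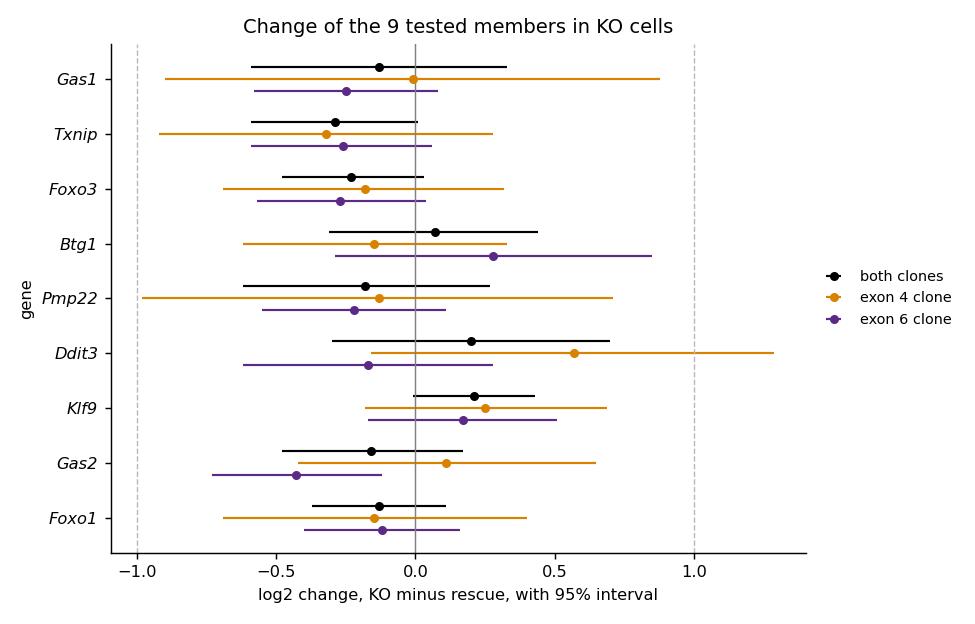
Log2 change between KO and rescue cells of the 9 tested arrest genes, with 95% intervals from limma, over both clones (black), in the exon 4 clone (orange) and in the exon 6 clone (purple), with dashed lines at a 2-fold change. All black intervals include 0 and lie inside the dashed lines, and of the single-clone intervals only that of Gas2 in the exon 6 clone excludes 0.

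After rescaling, 2 of the 9 tested arrest genes were called between the clones. Foxo3 was lower in the exon 6 clone, at 5.66 ± 0.776 RPKM, than in the exon 4 clone, at 9.15 ± 1.32 RPKM (SD, n = 4 each), a log2 difference of -0.64 (SE 0.11, 95% interval -0.90 to -0.39, limma adjusted p = 0.00782). The replicates did not overlap, with 4.91 to 6.70 RPKM in the exon 6 and 8.13 to 11.1 RPKM in the exon 4 clone, which held for 20.5% of all genes tested. Btg1 was lower in the exon 6 clone as well, at 5.76 ± 1.22 RPKM against 8.89 ± 0.958 RPKM, a log2 difference of -0.60 (SE 0.16, adjusted p = 0.0446). Its call was lost with the replicate number as a block (adjusted p = 0.0816) and in 7 of the 8 fits that each left out 1 replicate (adjusted p from 0.0620 to 0.112), and the technical libraries of the exon 6 clone, at 7.80 and 7.73 RPKM, reached above the lowest exon 4 library. These were 2 of 9 members called between the clones, both lower in the exon 6 clone, against 13.6% of all genes called and 6.71% called lower there. At an unadjusted p under 0.05 there were 3 of 9 members, against 30.9% of all genes. Pmp22 had a log2 difference of -0.49 (adjusted p = 0.129), with its highest values in the libraries of replicate 1 of the exon 4 clone. The other members had log2 differences between -0.24 and 0.15. Without rescaling the differences of Foxo3 (0.31) and Btg1 (0.37) were above 0, and neither was called.

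**Figure D3:**
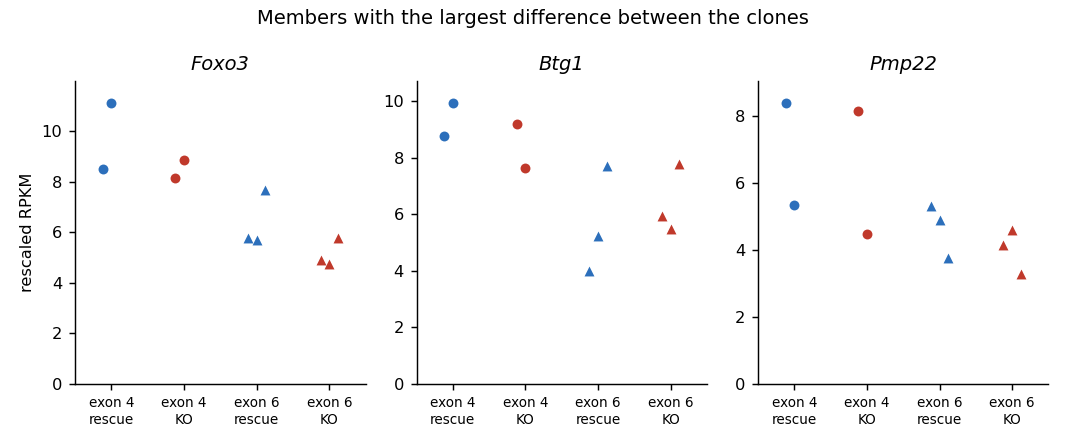
Rescaled RPKM of Foxo3, Btg1 and Pmp22 in each library, by clone and group, with replicates from left to right and the technical replicate of the exon 6 clone as the rightmost point. Foxo3 lies lower in all exon 6 than in all exon 4 libraries, while the exon 6 values of Btg1 and Pmp22 reach into the exon 4 range.

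The sign of the change moved with the scale of all genes for 6 of the 9 members. Klf9, Ddit3 and Btg1 were above 0 with and without rescaling. Without rescaling, all genes had a median log2 change of 0.64 between KO and rescue cells, and the 9 members ran from 0.37 for Foxo1 to 1.05 for Klf9, with 0 of 9 called over both clones against 5.35% of all genes called higher. Relative to the median of all genes, Gas2 (-0.20) and Foxo1 (-0.26) lay below it there, while Gas1 (0.21), Pmp22 (0.12), Foxo3 (0.08) and Txnip (0.04) lay above it. In the exon 6 clone alone the deposited values called 4 of 9 members higher in KO, Btg1, Ddit3, Pmp22 and Klf9, where 61.4% of all genes were called higher. Between the clones the deposited values called 0 of 9 members, against 16.8% of all genes. Quantile normalisation gave values close to the rescaled ones. With the scaling factor as a covariate the changes of Gas1 and Pmp22 were -0.59 and -0.69, and 0 of 9 members were called.

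**Figure D4:**
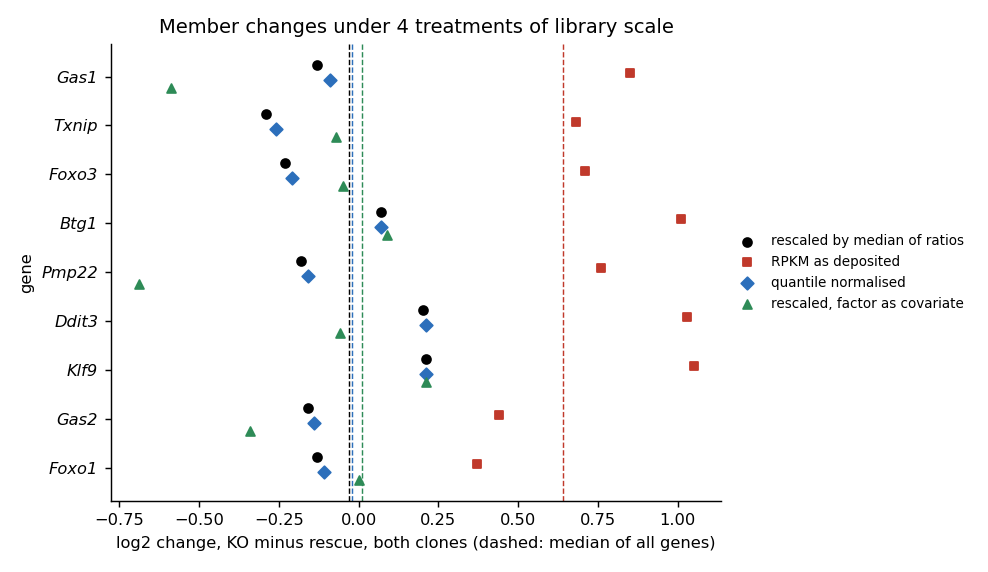
Log2 change between KO and rescue cells of the 9 tested arrest genes over both clones under 4 treatments of library scale, with the median of all genes for each treatment as a dashed line. The deposited values (red) are all above 0 and scatter around their own median of 0.64, while the rescaled (black) and quantile-normalised (blue) values scatter around 0.

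The promoters of the arrest genes were read for the letters that mark cell cycle and FOXO regulation, in windows from 250 bases before to 50 bases after the transcription starts of RefSeq (GRCm38.p6), on both strands. The 10 genes had 14 such windows. The CHR letters TTTGAA were in 1 of 14 windows (7.14%), against 17.9% of all 32851 promoters and 8 of 15 windows (53.3%) of the proliferation markers. The E2F letters, taken as TTCCCGC with its variants TTGGCGC and further TTCGCGC and also TTGCCGC, were in 5 of 14 (35.7%), against 9.57% of all promoters and 33.3% of those of the proliferation markers. Since both windows of Pmp22 hold the same site, this is 4 of 10 genes (Foxo1, Foxo3, Pmp22 and Txnip) against 10.9% of all genes. The E-box letters CACGTG were in 0 of 14, against 7.15% of all. The FOXO letters GTAAACA were in 3 of 14 (21.4%), against 3.65% of all. The windows of Txnip, Klf9 and Btg1 held the FOXO letters, at positions -121 to -115, -100 to -94 and -204 to -198 from the start. A second start of Gas2 held the CHR letters, at -51 to -46. These matches describe sequence and do not show that a factor binds there. The 250 bases before the start are printed below for these 4 windows, 5′ to 3′ on the plus strand of each chromosome, with the FOXO letters (in Btg1 their reverse complement) or, in Gas2, the CHR letters in capitals.
Txnip: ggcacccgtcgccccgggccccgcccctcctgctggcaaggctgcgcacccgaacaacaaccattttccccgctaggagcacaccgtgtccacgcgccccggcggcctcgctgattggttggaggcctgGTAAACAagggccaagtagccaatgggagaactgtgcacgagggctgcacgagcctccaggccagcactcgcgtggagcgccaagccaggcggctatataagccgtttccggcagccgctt
Klf9: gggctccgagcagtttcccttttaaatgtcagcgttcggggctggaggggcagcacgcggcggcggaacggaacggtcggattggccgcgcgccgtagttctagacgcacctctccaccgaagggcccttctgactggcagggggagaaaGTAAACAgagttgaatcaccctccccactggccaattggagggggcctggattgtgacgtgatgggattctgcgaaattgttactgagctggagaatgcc
Btg1: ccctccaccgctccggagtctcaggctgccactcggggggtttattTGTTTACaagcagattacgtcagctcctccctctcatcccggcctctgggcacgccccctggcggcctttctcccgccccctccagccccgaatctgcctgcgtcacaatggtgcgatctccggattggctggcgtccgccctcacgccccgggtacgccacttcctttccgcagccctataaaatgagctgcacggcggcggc
Gas2: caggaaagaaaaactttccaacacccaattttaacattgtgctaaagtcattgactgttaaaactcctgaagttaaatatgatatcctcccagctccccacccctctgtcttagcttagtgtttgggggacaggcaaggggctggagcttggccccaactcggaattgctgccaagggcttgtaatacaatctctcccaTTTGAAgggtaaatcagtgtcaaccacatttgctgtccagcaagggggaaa
These windows cover chr3:96557707-96557956 for Txnip, chr19:23140976-23141225 for Klf9, chr10:96616751-96617000 for Btg1 and chr7:51878717-51878966 for Gas2. The 3 genes with FOXO letters did not move together between KO and rescue cells, with log2 changes of -0.29, 0.21 and 0.07, and none was called. The 4 genes with E2F letters had changes of -0.13 (Foxo1), -0.23 (Foxo3), -0.18 (Pmp22) and -0.29 (Txnip), and none was called. Gas1 (-0.13) and Gas2 (-0.16), without E2F letters, were below 0 as well. A link between letters and changes was not tested.

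Genes related to the members gave like counts. Of all genes tested, 1.69% were called and 8.79% had an unadjusted p under 0.05. At the first share a list this short would hold few or no called genes, so a count of 0 says little. Of the Hedgehog genes with which Gas1 acts, 0 of 6 tested were called (median log2 change -0.11), with Smo, the signal transducer, at 5.71 ± 1.38 RPKM in KO against 7.05 ± 2.23 RPKM in rescue cells (SD, n = 4 each). Of the ligand and receptor genes related to Gas6, 0 of 3 tested were called (median 0.07). Of the other GAS-named genes and relatives of Pmp22, 0 of 8 were called (median 0.11). Emp1, a close relative of Pmp22, was at 12.9 ± 3.17 RPKM in KO against 9.44 ± 3.23 RPKM in rescue cells, with a log2 change of 0.45 and an adjusted p of 0.24. Emp1 and Emp2 (0.50) were the 2 of 8 with an unadjusted p under 0.05. Of the FOXO family and its known targets, 0 of 16 were called (median -0.02), with Sod2, a mitochondrial superoxide dismutase, at a log2 change of -0.24 (SE 0.13) and Cdkn1b, the cell cycle inhibitor p27, at 0.20 (SE 0.09). No gene of this list, of the Hedgehog list or of the Gas6 list had an unadjusted p under 0.05.

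Of the genes of the integrated stress response around Ddit3, 0 of 16 were called (median 0.08), against 1.69% of all genes. There, 4 of 16 had an unadjusted p under 0.05, against 8.79% of all genes. These 4, chosen after their values were seen, were Atf5, Trib3, Chac1 and Asns, targets of the factor ATF4. Their log2 changes were 0.28, 0.48, 0.48 and 0.30, with limma adjusted p-values from 0.288 to 0.535. Over the whole list 11 changes were above 0 and 5 below, with Ddit4 at 0.20, Ppp1r15a at 0.16 and Sesn2 at 0.01. A shared rise of ATF4 targets was not tested. Atf4 itself was at 22.8 ± 1.43 RPKM in KO against 21.9 ± 3.10 RPKM in rescue cells, with a log2 change of 0.06 (SE 0.13). Of the regulators and relatives of Txnip, 0 of 9 were called (median -0.02), and 2 of 9 had an unadjusted p under 0.05, Mlx (0.40, a partner of MondoA) and Arrdc3 (-0.32). Of the BTG and TOB genes and their partners, 0 of 6 were called (median 0.05), with Btg2, the closest relative of Btg1, at a log2 change of 0.50 (SE 0.18, adjusted p = 0.391). Btg2 was called when the technical replicate 3 libraries were left out. Btg2 and Cnot8 (-0.21) were the 2 of 6 with an unadjusted p under 0.05. Of the KLF family, 0 of 11 were called (median 0.04), and 1 of 11, Klf7 (-0.28), had an unadjusted p under 0.05.

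Of 11 other quiescence-associated genes tested, 0 were called (median -0.12), against 1.69% of all genes. Pdgfra, 1 of 11, had an unadjusted p under 0.05, against 8.79% of all genes. Pdgfra was lower in KO in 4 of 4 pairs, as were 12.9% of all genes tested. Pdgfra, the PDGF receptor alpha chain that accumulates in arrested NIH3T3 cells, was at 27.4 ± 8.10 RPKM in KO against 37.6 ± 9.07 RPKM in rescue cells, with a log2 change of -0.47 (SE 0.11, 95% interval -0.72 to -0.22, adjusted p = 0.102). Of the immediate early and serum response genes, 0 of 12 were called and 0 of 12 had an unadjusted p under 0.05 (median 0.20), beside the same shares. Their changes were above 0 for 11 of 12, with Egr1 at a log2 change of 0.31 (SE 0.51), and Myc, at -0.16 (SE 0.23), was the exception. The proliferation markers stood apart. There 12 of 16 were called higher in KO (median 1.23), and 16 of 16 had a change above 0. The largest on the log2(RPKM + 0.5) scale were Top2a (2.01), Mcm5 (1.99), Cdc45 (1.87), Ccna2 (1.58) and Cdk1 (1.47). This scale compresses low genes such as Ttk (1.33), whose means were 0.879 RPKM (KO) and 0.0490 RPKM (rescue), and sets their order. The list holds known targets of DREAM, and earlier results of these samples were known when it was drawn up, so its count is no independent evidence. In bulk RNA, fewer cells that express a gene and less RNA of it per cell cannot be told apart.

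**Figure D5:**
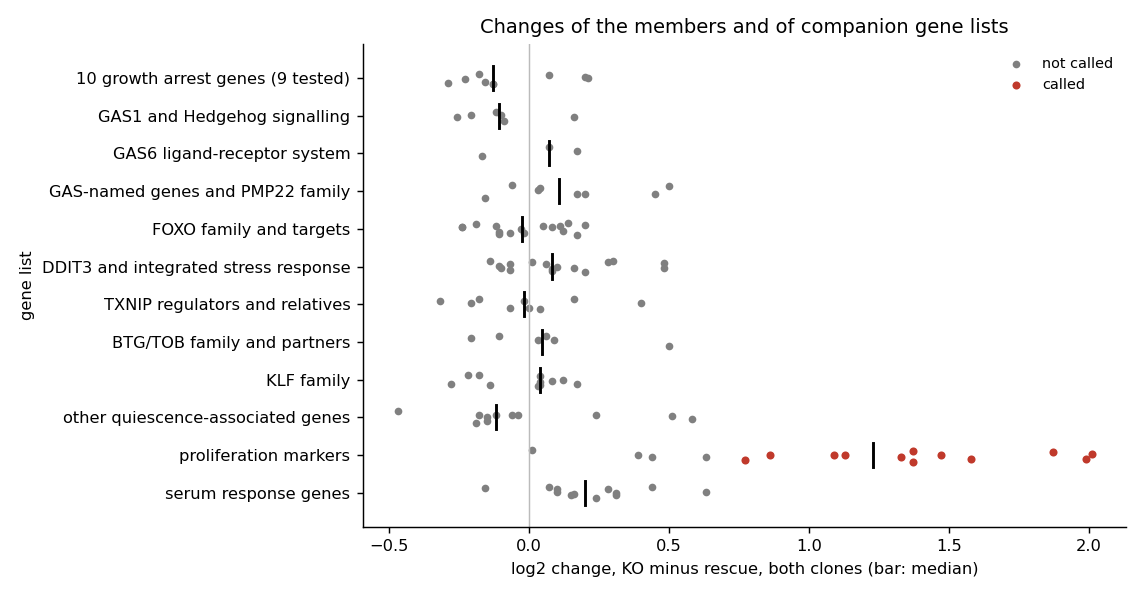
Log2 change between KO and rescue cells over both clones for the 9 tested arrest genes and 11 companion lists, with each gene as a point, called genes in red and the median of a list as a black bar. The arrest genes and 10 of the companion lists hold no called gene and have medians between -0.13 and 0.20, while the proliferation markers have a median of 1.23.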

How the data were processed

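RNA of 10 libraries was depleted of ribosomal RNA and sequenced in pairs of reads. The authors removed adapters (cutadapt 1.8.3), aligned to mm10 (segemehl 0-2-0), assigned reads to GENCODE vM5 genes (rnacounter 1-5-2) and deposited RPKM values, 1 column per library. Their own test was edgeR, which needs counts and was therefore not run on the RPKM values. Between 19.9% and 34.6% of the low values lay within 0.05 of a whole multiple of the commonest step, so whole reads were not recovered, the depth is unknown, and no counting error is given for a value. Columns of no sample numbered 0.

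Gene names and positions came from GENCODE M21 on GRCm38, in which 44585 of 45232 entries were found, and the Ensembl identifier of each member was matched in the deposited table. Libraries were rescaled by the median of ratios, taken over 8523 genes that averaged 1 RPKM or more. The technical libraries were averaged. Genes that averaged 0.1 RPKM or more in the replicates compared were fitted on log2(RPKM + 0.5) with limma 3.58.1 (R 4.3.3, with a trend), with Benjamini-Hochberg adjustment over all genes tested. The 0.5 added to each value shrinks log2 changes of genes near or below 0.5 RPKM. Python 3.11.15, pandas 2.3.3 and matplotlib 3.10.9 were used for the rest. The p-values measure the spread between cultures that the labels name as biological replicates. KO and rescue cells share replicate numbers in the labels, and same-numbered replicates deviated together, with correlations of 0.4773 in the exon 4 and 0.3601 in the exon 6 clone over 7550 genes, so the number was also fitted as a block. With 2 replicates per group the deviations of a clone mirror each other, so each clone gives 1 such value. The step was tested on simulated data for the comparison over both clones, where it called 99 of 100 genes shifted by 1 log2 unit, 100 of 100 shifted by 2, and 10 unchanged genes, among 16489 genes. The simulated noise had 1 spread for all genes and no clone or replicate effect, and only genes averaging 1 RPKM or more were shifted. Gas2 and Foxo1 averaged less. The standard errors of Ddit3 (0.22), Gas1 (0.20) and Pmp22 (0.19) were above the median of 0.13 over all genes. These counts therefore do not give the power of the test for those members.

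The members, the companion lists and the tests were chosen with earlier results of these data known. Named were all 10 members, Lin37, the called genes of the companion lists (the 5 with the largest change where more were called) and otherwise up to 3 of a list with the highest level. Mertk, Emp2, Cdkn1b, Trib3, Chac1, Asns, Ddit4, Ppp1r15a, Sesn2, Mlx, Arrdc3, Cnot8, Klf7, Ttk, Orc1, Nr4a1 and Ier2 fall outside this rule and were named after their values were seen. Alternatives tried were 0.1 or 1 as the pseudocount, no minimum or a minimum of 1 RPKM, RPKM as deposited, quantile normalisation, technical libraries kept separate or the technical replicate 3 left out, no clone covariate, limma without the trend, the block, leaving out each replicate, and, added after the data were seen, the scaling factor as a covariate. Promoter sequences came from RefSeq on GRCm38.p6. Reads shared between overlapping genes could not be reassigned.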

Additional observations from a re-analysis of the deposited data

Results flagged for a closer look

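In 22 groups of 4 replicates, Dixon's rule marks a sample that lies far from the other 3, which chance alone does in about 1 of 20 groups, and it marked 3. Pmp22 was at 8.14 RPKM in exon 4 KO replicate 1, while the other KO replicates were at 3.92, 4.15 and 4.48 RPKM. The rescue library of the same clone and number was as high, at 8.36 RPKM. Gas6 was at 0.0 RPKM in exon 4 KO replicate 1, beside 0.00831, 0.00977 and 0.00996 RPKM, all of them far below the minimum level for a test. Lin37 was at 0.417 RPKM in exon 6 KO replicate 1, beside 0.274, 0.284 and 0.285 RPKM, and remained below every rescue replicate.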

How the results depend on the processing

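No member was called over both clones under any alternative run. The exon 4 clone alone and the interaction called 0% of all genes after rescaling, so the counts of 0 members there say nothing about stability. With RPKM as deposited, the log2 changes of Gas1 (0.85), Gas2 (0.44), Pmp22 (0.76), Foxo1 (0.37), Foxo3 (0.71) and Txnip (0.68) moved above 0 together with the median of all genes (0.64). Relative to that median, Gas2 (-0.20) and Foxo1 (-0.26) stayed below 0. On that scale 4 of 9 members were called in the exon 6 clone, where 61.4% of all genes were called higher, 0 were called between the clones (Foxo3 0.31, Btg1 0.37), 888 genes were called in all, 875 of them higher, and 1 gene was called of the GAS-named list (Emp2), of the Txnip list (Mlx), of the BTG list (Btg2), of the other quiescence genes (Nr4a1) and of the serum response genes (Ier2), with 2 of the stress response genes (Chac1, Trib3). With the scaling factor as a covariate, Ddit3 (-0.06) and Foxo1 (0.0005) changed sign. Without exon 6 KO replicate 2 Btg1 was at -0.01, and without exon 6 rescue replicate 1 at -0.10, and over all fits that left out 1 replicate it ran from -0.10 to 0.16. Between the clones, 1 member (Foxo3) was called with no minimum level, 1 with the replicate block, and 1 to 2 when a replicate was left out. Over all genes 285 were called, against 177 with no minimum level, 103 with a minimum of 1 RPKM and 178 to 280 when a replicate was left out, with 185 without exon 6 KO replicate 1 and 178 without exon 6 KO replicate 2. A minimum of 1 RPKM removed proliferation markers from the test and left 4 called, 1 BTG gene (Btg2) was called without the technical replicate 3, and 1 quiescence gene (Pdgfra, lower) with the technical libraries separate. The causes of the other differences were not tested. The paired fit, with clone and replicate number as a block, called 303 genes, 276 higher and 27 lower, and changed no call of a member or companion list over both clones other than a 13th proliferation marker, Orc1.

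The depth of the libraries is unknown. Single technical libraries differed by as much as most fitted changes of the members, though those changes average 4 replicates a group. After rescaling, 4 replicates a group from 1 clone per targeted exon leave changes of the size of the intervals possible, and the intervals do not cover the choice of scale.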
